A study of Homo sapiens with 2 samples.

Results

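The genes described here are 34 regulators and targets of the tumour suppressor p53, read on 2 Affymetrix arrays. All probe sets annotated to these genes alone were taken, which gave 84 of 54613 human probe sets and covered 32 of the 34 genes. Total RNA came from K562, an established cell line from a human chronic myeloid leukaemia that lacks functional p53. The PML4 array holds RNA of K562 cells given a retrovirus that overexpresses PML4, an isoform of the promyelocytic leukaemia protein, and the control vector array holds RNA of K562 cells given the retroviral vector pMSCV. Both cultures were kept under G418 selection for 3 weeks, and the labels do not say whether a culture was a pool or a clone. With 1 array in each group no value has a replicate error, no test between the groups was possible, and every difference is one between these 2 arrays.

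p53 is a transcription factor that is held at a low level by MDM2 and MDM4 and is stabilised by DNA damage and other stresses. It then switches on genes that halt the cell cycle, repair DNA, change metabolism or promote cell death, and it also switches on MDM2, which closes a feedback loop. PML nuclear bodies are known as sites where p53 is modified in cells that have it. Several of these genes are also known targets of other stress factors, such as ATF4 and CHOP, which act in cells without p53.

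Sequences that match the p53 consensus near some of these genes are shown as a description. The 34 genes were listed by name and not by sequence. Promoter windows from 250 bases before to 50 bases after the transcription start were taken from RefSeq on GRCh38.p14. Of the 34 genes 30 matched, with 40 windows among them, and GADD45A, RRM2B, TP53INP1 and PHLDA3 were not matched. The p53 consensus full site was searched as a pair of 10-letter half-sites with 0 to 13 bases between them. At most 2 of 20 letters could be off the consensus, and the core C and G of each half-site had to match. The half-site reads alike on both strands, so one search covers both. A full site lay in 5 of the 40 windows, in the genes AEN, DDB2, FDXR and MDM2, and in 2.93% of all 35116 windows. An exact half-site lay in windows of 6 of the genes, AEN, DDB2, EI24, FDXR, PLK2 and SESN1, and in 6.63% of all windows. The site of DDB2 matched 20 of 20 letters and those of MDM2 and AEN matched 18. Capitals mark the half-sites below. The DDB2 site lies at chr11:47214979-47214999 on the plus strand, 6 to 26 bases into the transcript. For MDM2, the 250 bases before the start lie at chr12:68808767-68809016 on the plus strand, and for AEN at chr15:88621090-88621339 on the plus strand.
DDB2: GAACAAGCCCtGGGCATGTTT
MDM2: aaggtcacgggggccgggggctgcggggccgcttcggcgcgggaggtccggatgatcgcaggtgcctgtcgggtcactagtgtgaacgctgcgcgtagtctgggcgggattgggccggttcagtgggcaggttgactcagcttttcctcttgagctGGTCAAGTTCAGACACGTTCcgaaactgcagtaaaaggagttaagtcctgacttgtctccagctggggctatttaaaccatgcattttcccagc
AEN: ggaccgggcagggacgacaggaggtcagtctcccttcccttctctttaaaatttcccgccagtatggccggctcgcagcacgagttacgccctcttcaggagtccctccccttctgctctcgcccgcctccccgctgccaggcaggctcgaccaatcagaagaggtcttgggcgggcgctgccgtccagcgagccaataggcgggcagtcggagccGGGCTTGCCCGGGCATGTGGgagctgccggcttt
These matches are a description of letters and were not measured as binding, and sequence outside the windows was not searched. The letters TGATGNAA, a form of the composite element bound by ATF4 with C/EBP partners, were searched on both strands as well. They lay in the window of 1 of these genes, PLK3, and in 3.62% of all windows.

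None of the measured p53 pathway genes was called at 2-fold as scaled by the authors, although for PERP and TIGAR, each at the floor on 1 array, the difference is only a bound. A gene counted as measured when one of its probe sets exceeded 72.4 on at least 1 array, a floor set at the median signal of the human probe sets. This held for 29 of the 34 genes. The brightest measured probe set, by its mean log2 signal, stood for each gene, and signals under 72.4 were raised to that floor. The number called at 2-fold or more was 0 higher and 0 lower, where 1.23% and 3.21% of all 12541 measured genes were called higher and lower. By direction alone 13 of the 29 genes had a higher signal on the PML4 array and 16 a lower one. Higher signals made up 44.8% of these genes, while 44.7% of all measured genes were higher by any size and 55.3% were lower. The median difference, log2 PML4 minus log2 control vector, was -0.01 for the p53 pathway genes and -0.05 for all measured genes. This order was reversed with the floor at the 75th percentile, at -0.02 for the p53 pathway genes and 0.02 for all measured genes. It was also reversed after quantile normalization, at -0.04 and -0.01, and after loess centring, at -0.04 and -0.01. The differences ran from -0.99 for GDF15 to 0.76 for TRIAP1. In RNA of whole cultures, fewer cells that express a gene and less of its RNA per cell cannot be told apart.

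**Figure D1:**
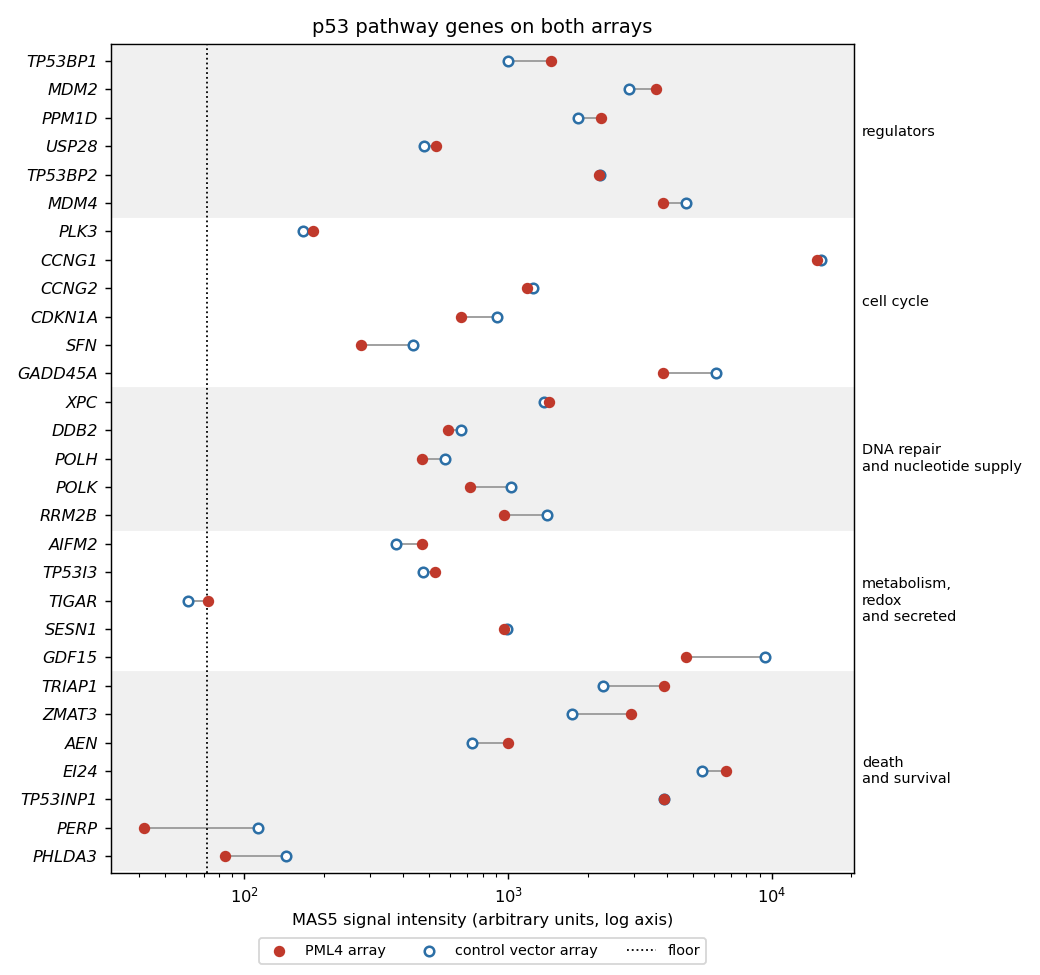
MAS5 signal intensity (log axis, arbitrary units) of the 29 measured p53 pathway genes, each by its brightest measured probe set, with filled points for the PML4 array and open points for the control vector array; each point is 1 array, so there are no error bars, and levels of different probe sets cannot be set against each other. The widest gaps among points above the floor of 72.4 are those of GDF15 and PHLDA3, lower on the PML4 array, and of TRIAP1 and ZMAT3, higher on it.

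At 1.5-fold, 2 of 29 genes were higher, TRIAP1 and ZMAT3, and 5 were lower, GDF15, PHLDA3, GADD45A, SFN and PERP. These are 6.90% and 17.2% of the measured p53 pathway genes, where 5.70% and 11.8% of all measured genes passed the same size. Within 0.5 on the log2 scale of no difference lay 19 of the 29 genes, or 65.5%, and 76.7% of all measured genes. The probe sets of a single gene give the only spread these arrays hold. The median gap between the log2 differences of probe sets for the same gene was 0.29, over 16239 pairs in 5453 genes. That gap holds no part of the variation from array to array or from culture to culture.

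**Figure D2:**
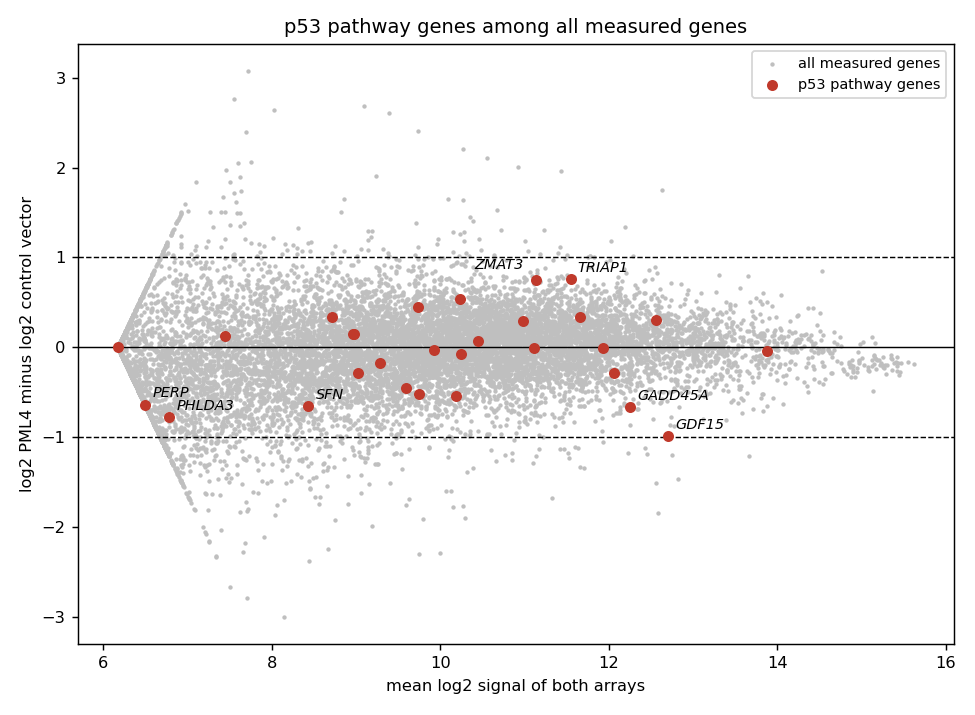
Difference (log2 PML4 minus log2 control vector) against mean log2 signal of both arrays for all 12541 measured genes in grey and the 29 p53 pathway genes in red, with dashed lines at 2-fold and names for genes past 1.5-fold. All red points lie between the dashed lines, with GDF15 at -0.99 closest to them.

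The genes that act on p53 itself had a higher signal in 4 of 6 cases, where 44.7% of all measured genes were higher. Their median difference was 0.22. With the mean over probe sets 3 of 6 were higher and the median was 0.12, and 3 of 6 were higher, with a median of 0.14, when the floor was raised to the 75th percentile. MDM2, the ubiquitin ligase that marks p53 for destruction, was at 3617.9 on the PML4 array and 2870.8 on the control vector array, a difference of 0.33. All 6 of its measured probe sets were higher on the PML4 array, and the other 4 of its 10 probe sets were under the floor on both arrays. Of the 6, 217373_x_at and 238733_at passed the floor only on the PML4 array. Their differences of 0.41 and 0.00 are bounds that could only be higher, and the rest were higher by 0.17 to 0.39. The second brightest probe set of MDM2, 225160_x_at, was at 1000.6 on the PML4 array and 797.4 on the control vector array. Its relative MDM4, which blocks the activation domain of p53, went the other way. It was at 3869.4 on the PML4 array and 4733.3 on the control vector array, a difference of -0.29. Of its 6 measured probe sets 5 were lower, with differences of -0.62 to -0.28, and 225742_at was at 158.4 on the PML4 array and 154.7 on the control vector array. Of the 5, 241876_at was at 48.4 on the PML4 array, under the floor, and at 95.5 on the control vector array. It passed the floor only on the control vector array, so its difference of -0.40 is a bound that could only be lower. MDM2 and MDM4 thus differed in sign by sizes close to the median gap between probe sets of a gene.

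PPM1D, the phosphatase WIP1 that switches off p53 and its kinases, was at 2246.0 on the PML4 array and 1833.7 on the control vector array, a difference of 0.29, and both of its probe sets were higher. TP53BP1, the DNA break protein 53BP1, was at 1452.3 on the PML4 array and 1000.6 on the control vector array by 203050_at. That is a difference of 0.54, but 213266_at was at 621.0 on the PML4 array and 814.6 on the control vector array, a difference of -0.39. The dimmer 1569098_s_at was at 107.3 on the PML4 array and under the floor, at 65.8, on the control vector array. USP28, a deubiquitinase that binds 53BP1, had a like split. Its 231837_at was at 531.2 on the PML4 array and 480.6 on the control vector array, while 230623_x_at was at 355.7 on the PML4 array and 597.6 on the control vector array. The third probe set of USP28, 1552678_a_at, was at 264.9 on the PML4 array and 330.6 on the control vector array, so that the mean over the 3 was -0.31. TP53BP2, the apoptosis-stimulating partner ASPP2, was level at 2213.6 on the PML4 array and 2223.1 on the control vector array.

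Targets that halt or slow the cell cycle had a lower signal in 5 of 6 measured genes, where 55.3% of all measured genes were lower. Their median difference was -0.26 and ranged from -0.48 to -0.21 under the alternatives. When centred on the median gene 4 of 6 were lower, and with the mean over probe sets all 6 were. CDKN1A, the cyclin-dependent kinase inhibitor p21 and the best known target of p53, was at 659.5 on the PML4 array and 903.4 on the control vector array, a difference of -0.45 in its single probe set. GADD45A, a stress sensor of growth arrest and DNA damage, was at 3872.5 on the PML4 array and 6145.4 on the control vector array, a 1.59-fold lower signal. SFN, the 14-3-3 sigma protein that holds cells before mitosis, was at 276.2 on the PML4 array and 433.9 on the control vector array by 33322_i_at. Its probe set 33323_r_at was at 28.1 on the PML4 array, under the floor, and at 188.7 on the control vector array, at least 2.61-fold lower. The third, 209260_at, did not reach the floor, at 43.4 on the PML4 array and 8.8 on the control vector array. With the mean of both measured probe sets SFN reached 2-fold, at -1.02.

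The cyclin G genes, whose products bind the phosphatase PP2A, lay close to no difference in their brightest probe sets. CCNG1 was at 14840.7 on the PML4 array and 15284.0 on the control vector array. CCNG2 was at 1181.9 on the PML4 array and 1242.8 on the control vector array, a difference of -0.07, and its other 3 measured probe sets were lower by more. The dimmest of these, 228081_at, was at 77.1 on the PML4 array, just above the floor, and 182.1 on the control vector array, a 2.36-fold lower signal. The mean over the 4 was -0.51. PLK3, a polo-like kinase of stress checkpoints, had probe sets of both signs, at 181.6 on the PML4 array and 167.0 on the control vector array by 204958_at, and at 104.7 on the PML4 array and 119.0 on the control vector array by 215462_at. PLK2, a related kinase, was under the floor on both arrays, at 37.2 on the PML4 array and 63.9 on the control vector array. BTG2, an antiproliferative gene, was not analysed here.

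Genes of DNA repair and nucleotide supply had a lower signal in 4 of 5 cases, where 55.3% of all measured genes were lower. With the mean over probe sets 3 of 5 were lower. Their median difference was -0.29 and ranged from -0.29 to -0.17 under the alternatives. RRM2B, the ribonucleotide reductase subunit that supplies nucleotides outside S phase, was at 966.1 on the PML4 array and 1408.4 on the control vector array, a 1.46-fold lower signal. POLK, a translesion DNA polymerase, was at 716.8 on the PML4 array and 1026.8 on the control vector array, a difference of -0.52, and its second measured probe set differed by -0.24. POLH, the translesion polymerase that copies past ultraviolet damage, was at 470.5 on the PML4 array and 576.1 on the control vector array, a difference of -0.29. Of its 6 measured probe sets 5 were lower, with differences of -0.46 to -0.06. The sixth, 231115_at, was at 161.4 on the PML4 array and 66.3 on the control vector array, at least 2.23-fold higher, and it brought the mean over the 6 to 0.01.

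The damage recognition genes DDB2 and XPC, which start nucleotide excision repair, were near level. DDB2, which carries the exact p53 site shown above, was at 589.2 on the PML4 array and 664.9 on the control vector array, a difference of -0.17. XPC was at 1427.8 on the PML4 array and 1360.7 on the control vector array, a difference of 0.07. Both are read by a single probe set.

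GDF15, a secreted stress hormone of the TGF-beta family, had the widest difference of the p53 pathway genes when each was read by its brightest probe set with the floor at 72.4, while PERP was further apart with the lower floor and SFN with the mean over probe sets. Its probe set 221577_x_at was at 4730.4 on the PML4 array and 9390.1 on the control vector array, a 1.99-fold lower signal and a difference of -0.99. It passed 2-fold narrowly when the arrays were quantile normalized or loess centred, at -1.003 and -1.006. Its other probe sets were under the floor on both arrays, 229868_s_at at 12.7 on the PML4 array and 56.4 on the control vector array, and 221576_at at 5.7 on the PML4 array and 15.1 on the control vector array. The ending _x_at marks probes that may pair with other transcripts too, and without such probe sets GDF15 was not measured.

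The other metabolic and redox targets were near level, and with GDF15 the group's median was 0.01, from -0.16 to 0.17 under the alternatives. SESN1, a sestrin that restrains mTORC1, was at 964.3 on the PML4 array and 985.9 on the control vector array. TP53I3, a quinone oxidoreductase, was at 527.0 on the PML4 array and 474.9 on the control vector array, a difference of 0.15. TIGAR, which lowers glycolytic flux, was barely measured, at 72.8 on the PML4 array and under the floor, at 61.1, on the control vector array. Its difference of 0.01, a bound set by the floor, was also the group's median. With the floor at the 25th percentile TIGAR was at 0.25 and the group's median at 0.15. AIFM2, the ferroptosis suppressor FSP1, was higher by 0.33 in 224461_s_at, at 472.5 on the PML4 array and 375.0 on the control vector array. It differed by -0.34 in 228445_at, at 295.5 on the PML4 array and 372.9 on the control vector array, so the direction of AIFM2 depends on the probe set read. FDXR, ferredoxin reductase, was not analysed here.

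Among genes of cell death and survival 4 of 7 measured genes had a higher signal, where 44.7% of all measured genes were higher. Their median difference was 0.30 and ranged from 0.27 to 0.45 under the alternatives. TRIAP1, a small inhibitor of apoptosis that works in mitochondrial lipid transport, was at 3890.8 on the PML4 array and 2295.7 on the control vector array, a 1.69-fold higher signal in its single probe set. ZMAT3, an RNA-binding zinc finger protein, was at 2916.9 on the PML4 array and 1737.7 on the control vector array, a 1.68-fold higher signal. Of its 5 measured probe sets 4 were higher, by 0.37 to 0.75, and 1555609_a_at was at 138.8 on the PML4 array and 153.8 on the control vector array. AEN, an exonuclease that acts in apoptosis and has the promoter site shown above, was at 998.3 on the PML4 array and 731.5 on the control vector array, a difference of 0.45. EI24, a protein of the endoplasmic reticulum linked to autophagy, was at 6700.1 on the PML4 array and 5447.3 on the control vector array. Its second probe set was at 4544.3 on the PML4 array and 3600.4 on the control vector array, so that both were higher, by 0.30 and 0.34.

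PHLDA3, an inhibitor of AKT, was lower at a dim signal, at 84.4 on the PML4 array and 144.4 on the control vector array, a difference of -0.77. PERP, a membrane protein of desmosomes, was under the floor at 41.8 on the PML4 array and was at 112.7 on the control vector array, at least 1.56-fold lower. Its other 4 probe sets were under the floor on both arrays, and a lower floor, at the 25th percentile, gave a difference of -1.43. TP53INP1, a nuclear protein of autophagy and cell death, was level at 3884.1 on the PML4 array and 3894.4 on the control vector array. CYFIP2, a subunit of the WAVE actin regulator, and SPATA18, a protein of mitochondrial quality control, were under the floor on both arrays. The CYFIP2 probe sets read 17.7 and 4.8 on the PML4 array and 7.3 and 9.1 on the control vector array. Those of SPATA18 read 33.5 and 10.6 on the PML4 array and 6.9 and 9.4 on the control vector array.

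**Figure D3:**
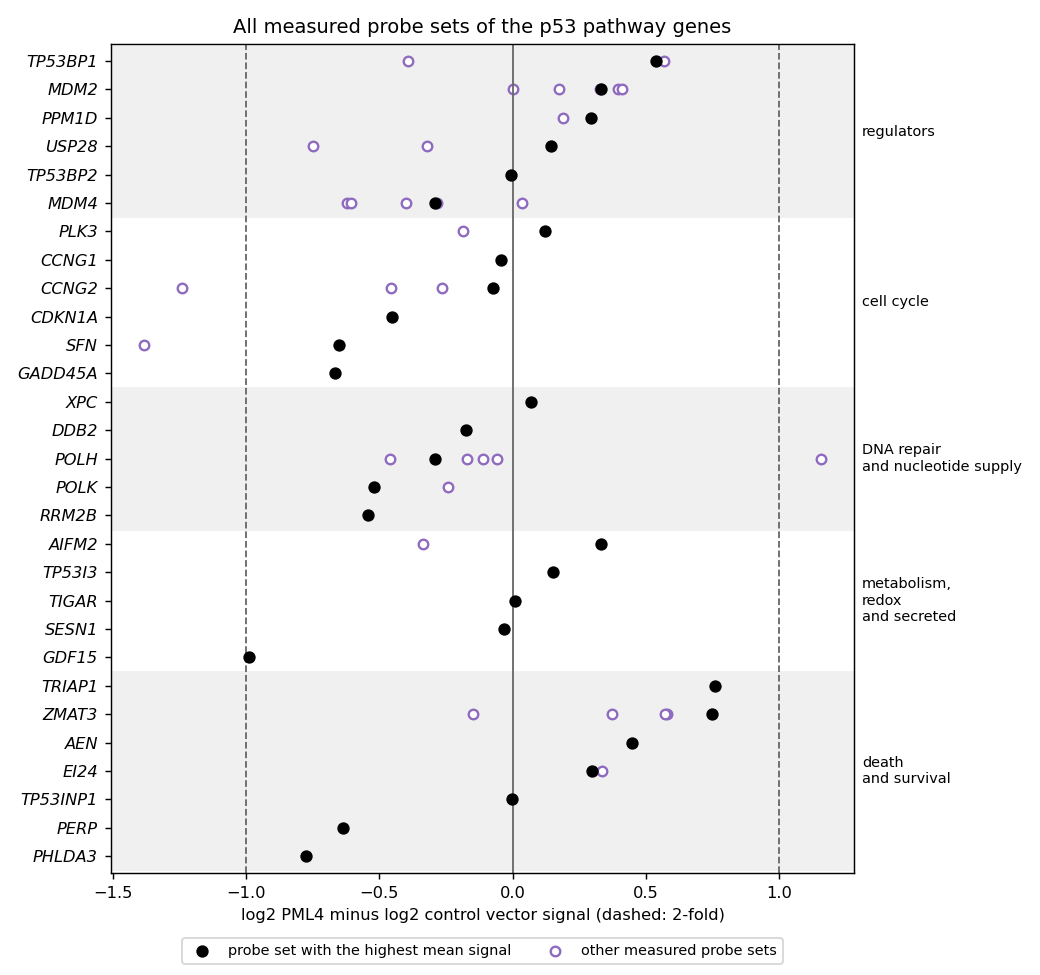
Difference (log2 PML4 minus log2 control vector) of the 61 measured probe sets of 29 p53 pathway genes, grouped by role, with filled points for the probe set that stands for the gene and open points for its others; dashed lines mark 2-fold. The open points past the lines belong to CCNG2, SFN and POLH, and TP53BP1, USP28, MDM4, PLK3, POLH, AIFM2 and ZMAT3 have points on both sides of zero.

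Probe sets of a single gene often differed in direction. Several probe sets were measured for 13 of the 29 genes, and in 6 of these, or 46.2%, all went the same way. Among all measured genes with several probe sets the share was 51.5%. The 6 genes were MDM2, PPM1D, SFN, CCNG2, POLK and EI24. A probe set above the floor on 1 array only could go just 1 way, and both shares include such probe sets. Among the 13 genes they belong to MDM2, SFN, MDM4, TP53BP1 and POLH.

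The wider pathway was read from 95 other genes, of which 78 were measured. The remainder were under the floor on both arrays or were not analysed here. TP73, a transcription factor of the p53 family, was at 175.2 on the PML4 array and 149.9 on the control vector array. The median difference of the 78 genes was 0.02. Of these genes 1 was called higher and 4 were called lower, where 1.23% of all 12541 measured genes were called higher and 3.21% lower. The higher one was PML, the gene that was transduced, at 1386.8 on the PML4 array and 216.3 on the control vector array. Only 5 of its 9 measured probe sets were higher, and the difference was 0.23 once those with the endings _x_at and _s_at were left out.

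The 4 genes called lower had entered the list as known targets of p53, which is not a result of these arrays. TRIM22, an antiviral ubiquitin ligase, was at 91.7 on the PML4 array and 445.9 on the control vector array, a 4.86-fold lower signal. DDIT4, an inhibitor of mTORC1, was at 3236.0 on the PML4 array and 11645.4 on the control vector array. ATF3, a stress transcription factor, was at 355.0 on the PML4 array and 862.5 on the control vector array, a difference of -1.28 that was -0.80 as the mean over its 3 probe sets. TNFRSF10B, the death receptor DR5, was at 1688.1 on the PML4 array and 3385.2 on the control vector array, a difference of -1.004 at the edge of a call. It was lower in all 3 measured probe sets and lay between -1.06 and -0.88 under the alternatives.

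Some of the p53 targets that were lower are also known targets of ATF4 or CHOP, the factors of the integrated stress response, and this choice of genes followed from their values. DDIT4, ATF3, TNFRSF10B, GDF15 and GADD45A, given above, are of this kind. SESN2, a sestrin, was at 1077.0 on the PML4 array and 2109.1 on the control vector array, a difference of -0.97 that passed 2-fold after loess centring. PMAIP1, the BH3 protein NOXA, was at 2127.1 on the PML4 array and 3643.9 on the control vector array, a difference of -0.78 that passed 2-fold with the mean over its probe sets. SESN1, the sestrin counted among the 34 genes, differed by -0.03. Whether the stress response sets these levels was not tested.

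Genes that p53 represses through p21 and the DREAM complex, most of them mitotic, had a higher signal in 13 of 17 measured cases. The share was 76.5%, where 44.7% of all measured genes were higher, and the median difference was 0.34. The 44.7% covers dim genes too, and no share was taken among genes of like brightness. With the floor at the 75th percentile 12 of 16 were higher, with a median of 0.24 beside 0.02 for all measured genes. Without the endings _x_at and _s_at 9 of 13 were higher. None of the 17 was called at 2-fold. CDC20, an activator of the anaphase-promoting complex, was at 2685.5 on the PML4 array and 1589.5 on the control vector array, and PLK1, a mitotic kinase, was at 471.0 on the PML4 array and 286.7 on the control vector array. FOXM1, a transcription factor of mitotic genes, was at 1104.6 on the PML4 array and 809.0 on the control vector array. CDC25C, a phosphatase that opens mitosis, was lower, at 833.0 on the PML4 array and 986.8 on the control vector array. These 4 genes were picked after their values were seen. The group's median was between 0.20 and 0.39 under the 8 alternatives. Across the remaining groups the medians were -0.02 for upstream kinases and modifiers, -0.28 for apoptosis targets and -0.09 for other targets. Under the alternatives they ranged from -0.04 to 0.03, from -0.42 to -0.12 and from -0.10 to 0.05 in these groups, so that the first and the last changed sign.

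**Figure D4:**
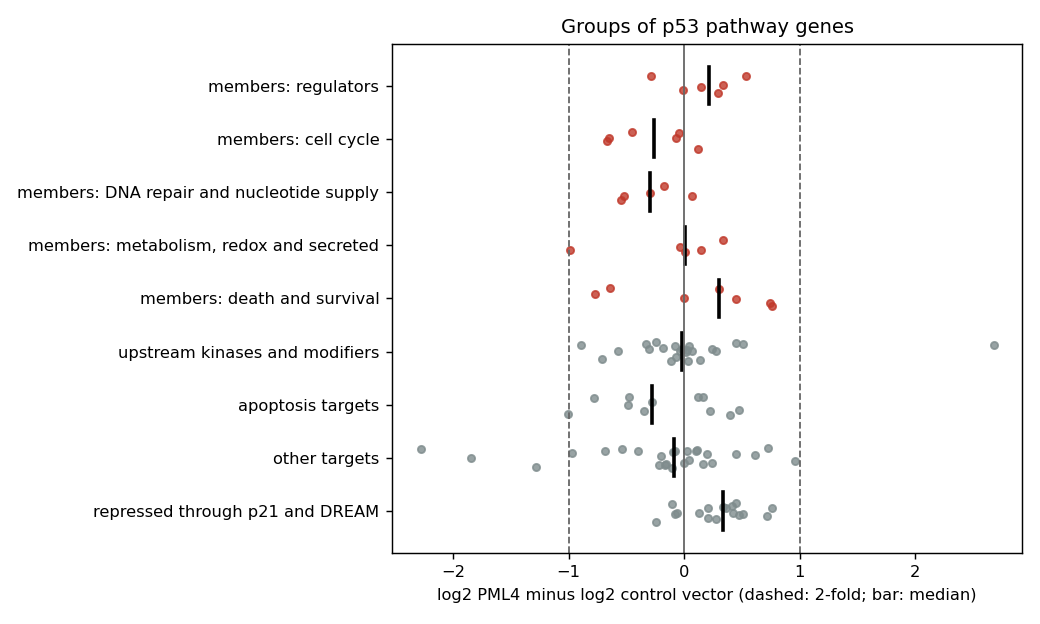
Difference (log2 PML4 minus log2 control vector) of each measured gene by group, in red for the 5 roles among the p53 pathway genes and in grey for 4 groups of other pathway genes, with a bar at each median and dashed lines at 2-fold. The group repressed through p21 and DREAM has its median at 0.34, and the grey points past the lines are PML, TNFRSF10B, ATF3, DDIT4 and TRIM22.

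The arrays carried the erythroid markers of the K562 line. All 8 such genes with a probe set were measured, with a summed signal of 72737.0 on the PML4 array and 48105.3 on the control vector array. They did not move together. TFRC, the transferrin receptor, held most of the gap, at 31653.7 on the PML4 array and 17625.2 on the control vector array, and HBZ, zeta-globin, was at 5465.5 on the PML4 array and 1401.4 on the control vector array. In contrast EPOR, the erythropoietin receptor, was at 364.8 on the PML4 array and 760.3 on the control vector array, and TAL1, an erythroid transcription factor, was at 1861.8 on the PML4 array and 2679.9 on the control vector array. These are their brightest probe sets. Of the 4 measured for EPOR 3 were lower and 1 higher, and of the 2 for TAL1, 1 was lower and 1 higher. T cell markers were measured for 2 of 5 genes, of which CD3D was at 4996.3 on the PML4 array and 2478.0 on the control vector array. The other, CD3E, was at 55.3 on the PML4 array, under the floor, and 105.9 on the control vector array. CD2, CD8A and LCK were under the floor on both arrays. The summed signals were 5051.6 on the PML4 array and 2583.9 on the control vector array for T cell markers, and 170.7 and 205.5 on these arrays for the 1 measured B cell marker of 3 with a probe set. On the PML4 and control vector arrays they were 3877.2 and 3884.9 for 2 monocyte markers of 3, 335.7 and 512.9 for 2 of 6 fibroblast markers, and 16147.4 and 16475.9 for 3 of 5 epithelial markers. The part of these differences in the values of the p53 pathway genes was not tested.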

How the data were processed

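Per the labels' protocols, 6 µg of total RNA was used to prepare biotinylated cRNA. The authors deposited linear MAS5 signal intensity values, and MAS5 carries no version per the submitters' processing notes. Leaving out the lowest and highest 2% of probe sets, the mean deposited intensity was 500.1 on the PML4 array and 500.0 on the control vector array. Detection calls were not used. Probe sets were named through GEO's array annotation where it gave 1 gene, with symbols updated through Entrez identifiers.

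Intensities under the floor were set to it before taking log2, so that a difference with either array at the floor is a bound. No further scaling was applied. Of human probe sets 48.1% exceeded the floor on the PML4 array and 51.9% on the control vector array. The alternatives moved the floor (25th percentile, 75th percentile, or none and a pseudocount of 32), the scaling (median gene, quantile, or loess with span 0.4), the probe sets used (their mean per gene, or none with the endings _x_at and _s_at) and the size of a call (1.5-fold, 3-fold). The calculation was tested on simulated data. The genes, lists, roles and alternatives were chosen with earlier results of these data known. Values are given for all measured p53 pathway genes and, of the other pathway genes, for TP73, PML and those called, at most 15, with 6 more that were chosen after their values were seen. Python 3.11.15 with pandas 2.3.3 and statsmodels 0.14.6 was used. The number of arrays limits the precision.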

Additional observations from a re-analysis of the deposited data

How the results depend on the processing

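No paired analysis was possible because each group holds 1 array, and no array could be left out. Under the 8 alternatives the median difference of the 34 genes lay between -0.04 and 0.04, and that of the other pathway genes between -0.005 and 0.07. Both thus changed sign. These shifts were under 0.29, the median gap between probe sets of a gene, which is not a spread of medians over many genes. Of the 34 genes, calls lower numbered 1 instead of 0 for a floor at the 25th percentile (PERP), after quantile normalization and after loess centring (GDF15), and with the mean over probe sets (SFN). At 1.5-fold they numbered 2 higher and 5 lower. Of the other pathway genes, calls higher numbered 2 instead of 1 when centred on the median gene and after quantile normalization and loess centring, with CCND1 added. They numbered 0 when the endings _x_at and _s_at were left out and 6 at 1.5-fold, and with the mean over probe sets the 1 call was CCND1 in place of PML. Calls lower, 4 as reported, numbered 8 for a floor at the 25th percentile, 2 with it at the 75th, 1 when those endings were left out, 9 at 1.5-fold and 2 at 3-fold, and between 3 and 5 under the other 5 alternatives. Of 29 measured genes 21 kept their sign under all alternatives that gave a value, and 12 of 219 recomputed differences moved by 0.29 or more. Many of the 219 could not move, because a changed floor leaves bright probe sets as they are. The mean likewise leaves a gene with 1 measured probe set as it is. With the mean over probe sets, TP53BP1, USP28, SFN, CCNG2, POLH, AIFM2 and ZMAT3 moved by that much. Over all genes the higher and lower calls, 154 and 402 as reported, were 667 and 2000 of 17590 genes (3.79% and 11.4%) for the floor at the 25th percentile, 50 and 63 for the 75th, 168 and 580 without a floor, 184 and 341 centred on the median gene, 196 and 281 after quantile normalization, 201 and 265 after loess centring, 130 and 329 with the mean over probe sets, and 135 and 329 without the endings. Signals near the floor limit PERP, PHLDA3 and TIGAR and, of the other pathway genes, TRIM22. The cause of these shifts was not tested.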
